A study of Solanum tuberosum with 2 samples.

Results

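The expression of 5 potato genes tied by annotation to abscisic acid (ABA) or dehydration was described, out of 40430 genes listed for this experiment. They encode 9-cis-epoxycarotenoid dioxygenase, the dehydrin-type protein TAS14, an ATHB-12-like homeobox protein, EID1-like F-box protein 3 and an HVA22-like protein, with names as given in the annotation table of the study. That table covers 367 identifiers, all listed by the study for a difference between control and ultrasonicated material. Genes of ABA or dehydration outside it were not sought. The gene ontology terms of 4 of the 5 genes mention ABA, water deprivation or osmotic stress, and the ATHB-12-like gene entered by its name alone. These genes were chosen by annotation with their values in both libraries already known, and 4 of the 5 were listed by the study at 0 h for a difference between its non-ultrasonicated control, a library of the same code as the cut one, and an ultrasonicated library. Their values are therefore a description, and no test was made of them.

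Wild-type plants of cv. Desirée grown in vitro for 4 w were compared in 2 states, with 1 mRNA library each. The uncut library was made from intact plantlets that had received no stress. Its title reads uncut explant and both samples were labelled leaf, so the organs in each library are not settled. The cut library came from single-node segments, each with 1 leaf, severed from such plantlets, and the shared library code is what ties it to 0 h. RNA of 3 biological replicates was pooled in each library per the methods of the study, so differences between plantlets cannot be measured and no difference below has a replicate check.

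ABA is the hormone through which plants close stomata and adjust their cells to water loss. It is made from carotenoids, and 9-cis-epoxycarotenoid dioxygenase, which cleaves the epoxycarotenoid precursor in the plastid, is its rate-limiting enzyme. Downstream of the hormone, transcription factors and ubiquitin ligase subunits adjust the signal, while dehydrins and related proteins protect membranes and proteins in drying cells. Wounded and detached plant organs lose water.

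For the 9-cis-epoxycarotenoid dioxygenase gene, which the study also followed by RT-qPCR, the primer list gives the pair that marks the amplified stretch. It is shown because it is the sequence by which this gene was identified outside the read counts. The RT-qPCR of the study compared control with ultrasonicated material, and no such measurement of uncut against cut is described there. Both primers are 19 bases long, and no capitals are used since no part was set apart.
PGSC0003DMG400027633 forward primer: ccaaatgtgttcaaggcgt
PGSC0003DMG400027633 reverse primer: ttagggaaaacagggcgac

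Expression values were reads per 1000000 reads of the library (RPM) on a log2 scale. Whole reads could be recovered from them, since 100% of the values of up to 10000 reads (23918 uncut, 24538 cut) lay within 0.05 read of a whole number. The values had been scaled to 37.96 M reads (uncut) and 33.85 M reads (cut). A gene without reads may have had up to 3 reads, which equalled 0.0790 RPM (uncut) and 0.0886 RPM (cut). Intervals are exact 95% intervals that cover counting error only. Reads on genes came to 1.77 times the scaling total in each library, and if mates of a pair were counted singly the intervals, which assume independence, are narrower than they should be. Although both samples were labelled leaf, 3 of 3 root markers tied to the Casparian strip had reads in both libraries, and their summed level was 424 RPM (uncut) and 41.1 RPM (cut). The summed level of 8 leaf markers (light-harvesting proteins and carbonic anhydrase) was 270.3 RPM (uncut) and 191 RPM (cut). An effect of cutting and an unequal mix of organs cannot be told apart, nor can fewer cells of a type and less RNA per cell.

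Of the 5 genes, 4 were higher in the cut library by at least 2 on the log2 scale and 0 were lower by as much, a size used here as the call. Over the 21688 genes with at least 50 reads in both libraries together, 8.25% were called higher and 7.35% lower. The median difference of the 5 genes, cut minus uncut, was 3.51 on the log2 scale, while that of all 21688 genes was -0.33. The summed level of the 4 higher genes was 44.6 RPM (uncut) and 694 RPM (cut). Since the genes were selected from known values, nothing is read from these counts.

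**Figure D1:**
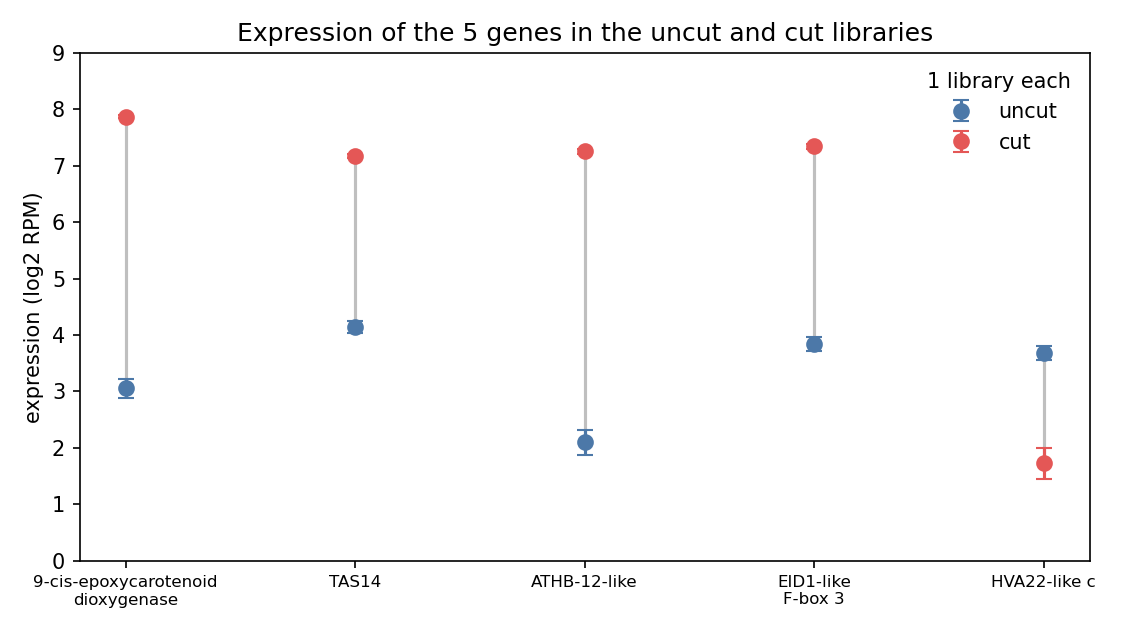
Expression (log2 RPM) of each of the 5 genes in the uncut (blue) and cut (red) library, with exact 95% counting intervals as bars where they are wider than the point and a grey line joining the libraries. The cut library is higher for 4 genes, at 7.18 to 7.87, and lower for the HVA22-like gene, at 1.73.

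The enzyme of hormone synthesis comes first. The 9-cis-epoxycarotenoid dioxygenase gene (PGSC0003DMG400027633) lies on the minus strand of chromosome 7 of SolTub 3.0, at bases 51778895-51781175. It had 315 reads in the uncut library, or 3.05 log2 RPM (95% interval 2.89 to 3.21). In the cut library it had 7937 reads, or 7.87 log2 RPM (7.84 to 7.91). The cut value was thus 28.3-fold higher, a log2 difference of 4.82 (4.66 to 4.99). Of all genes with at least 50 reads, 1.54% had a larger difference.

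The regulators of the signal were an ATHB-12-like homeobox-leucine zipper gene and an F-box gene. In Arabidopsis, ATHB-12 is a transcription factor whose gene is induced by ABA and water deficit. The potato gene (PGSC0003DMG400000248, minus strand of chromosome 1, 73906356-73907795) had 162 reads in the uncut library, or 2.09 log2 RPM (1.86 to 2.32), the lowest read count of the 5 genes there. It had 5177 reads in the cut library, or 7.26 log2 RPM (7.22 to 7.30). Its difference of 5.16 (4.94 to 5.40), or 35.8-fold, was the largest of the 5 genes, although its counting interval overlapped that of the dioxygenase gene.

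EID1-like F-box protein 3 is, in Arabidopsis, a ubiquitin ligase subunit that promotes ABA responses. Its potato gene (PGSC0003DMG400020122, plus strand of chromosome 6, 59158020-59159136) was at 3.84 log2 RPM (3.71 to 3.96, 542 reads) in the uncut library. The cut library held 5500 reads of it, or 7.34 log2 RPM (7.31 to 7.38). The difference was 3.51 (3.38 to 3.64), or 11.4-fold, and 3.17% of the tested genes exceeded it.

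Among the genes of proteins that act in the stressed cell itself, the one for a dehydrin was called higher and the one for an HVA22-like protein was not called. TAS14 is a dehydrin of tomato that accumulates under ABA and salt, one of the hydrophilic proteins that shield cell structures during water loss. The TAS14 gene of potato (PGSC0003DMG400003530, minus strand of chromosome 2, 40093256-40094404) had the most reads of the 5 genes in the uncut library, 672, which equal 4.15 log2 RPM (4.03 to 4.26). With 4895 reads in the cut library, it stood at 7.18 log2 RPM (7.14 to 7.22), or 8.17-fold higher. Its difference of 3.03 (2.91 to 3.15) was the smallest among the 4 higher genes, and 4.21% of the tested genes had a larger one.

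HVA22, first known from barley, is an ABA-inducible membrane protein of the endoplasmic reticulum with a role in vesicle traffic. The HVA22-like gene (PGSC0003DMG402023061, plus strand of chromosome 5, 5474956-5477116) was the only member with a lower value in the cut library. It had 486 reads in the uncut library, or 3.68 log2 RPM (3.55 to 3.81), and 112 reads in the cut library, or 1.73 log2 RPM (1.45 to 1.99). The cut value was 3.87-fold lower, a log2 difference of -1.95 (-2.26 to -1.65). This was just under the size of 2 needed for a call, and its counting interval spanned that size. A difference lower than this was seen for 7.69% of the tested genes. The HVA22-like gene was also the only member not listed by the study at 0 h.

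**Figure D2:**
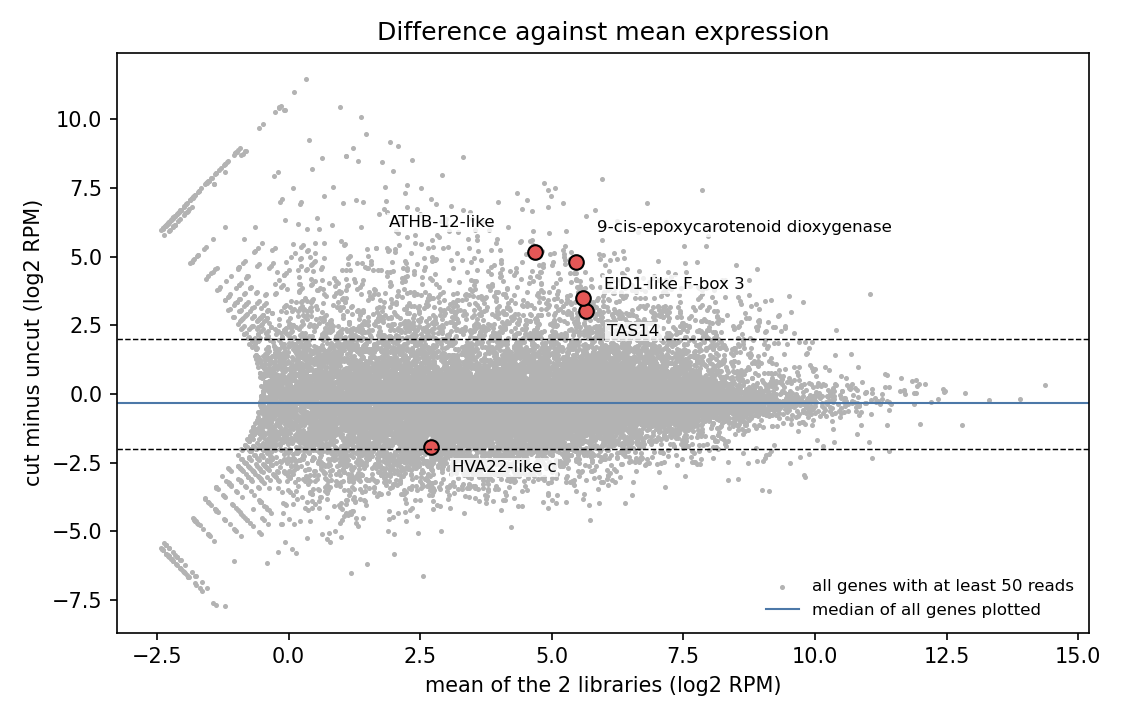
Difference between the libraries (cut minus uncut, log2 RPM) against the mean of both log2 RPM values for the 21688 genes with at least 50 reads (grey), with the 5 genes in red. Dashed lines mark differences of 2 in either direction and the blue line the median of -0.33; 4 of the 5 genes lie above the upper line and the HVA22-like gene lies at -1.95.

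Among themselves the 5 genes were ordered by RPM per kilobase of the annotated gene span, introns included. In the uncut library this level was 15.4 for TAS14, 12.8 for the F-box gene, 5.93 for the HVA22-like gene, 3.64 for the dioxygenase gene and 2.96 for the ATHB-12-like gene. The last pair did not differ beyond the counting intervals, which ran from 3.25 to 4.06 and from 2.53 to 3.46. In the cut library the order was the F-box gene at 145, TAS14 at 126, the ATHB-12-like gene at 106, the dioxygenase gene at 103 and the HVA22-like gene at 1.53. The ATHB-12-like and dioxygenase genes again overlapped, with intervals from 103 to 109 and from 101 to 105. Relative to each other, the levels of the 4 higher genes thus lay closer together in the cut library than in the uncut one. These genes were chosen with their values known, so nothing is read from this.

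Other such genes were sought only among the 367 identifiers of the annotation table, all from the ultrasound comparisons of the study. That table ties 5 other genes to ABA, dehydration or carotenoid cleavage, or names them for such proteins. Of these, 1 was called higher, 2 were called lower and 2 lay between, and their median difference was -0.76 on the log2 scale. Over all tested genes 8.25% were called higher and 7.35% lower, with a median of -0.33, and with 5 genes nothing particular is read from the list. The higher one was another ATHB-12-like gene (PGSC0003DMG400012118), on chromosome 8. It went from 382 reads (uncut) to 2926 (cut), and its difference was 3.10 (2.95 to 3.26). The lower ones were a late embryogenesis abundant gene (PGSC0003DMG400027031), of a protein class that also protects drying cells, and fasciclin-like arabinogalactan protein 11 (PGSC0003DMG400003371), a cell surface protein of secondary walls in Arabidopsis. The former had 2464 reads (uncut) and 292 (cut), a difference of -2.91 (-3.09 to -2.74). The latter had 668 and 126 reads, a difference of -2.24 (-2.53 to -1.96), and fell short of the call at -1.91 under median ratio scaling and at -1.98 on a log2(RPM + 1) scale.

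Neither plastid gene of this list reached the call. Light-induced protein (PGSC0003DMG400016727), a lipid-associated protein of the chloroplast, had 3297 reads (uncut) and 7247 (cut), a difference of 1.30 (1.24 to 1.36). Carotenoid cleavage dioxygenase 4 (PGSC0003DMG400001969), which cleaves carotenoids but does not make the ABA precursor, had 1713 and 905 reads, a difference of -0.76 (-0.87 to -0.64). The dioxygenase of ABA synthesis, described above, was at 4.82 in the same libraries. It was chosen with its values known, so no contrast between these enzymes is read from this.

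**Figure D3:**
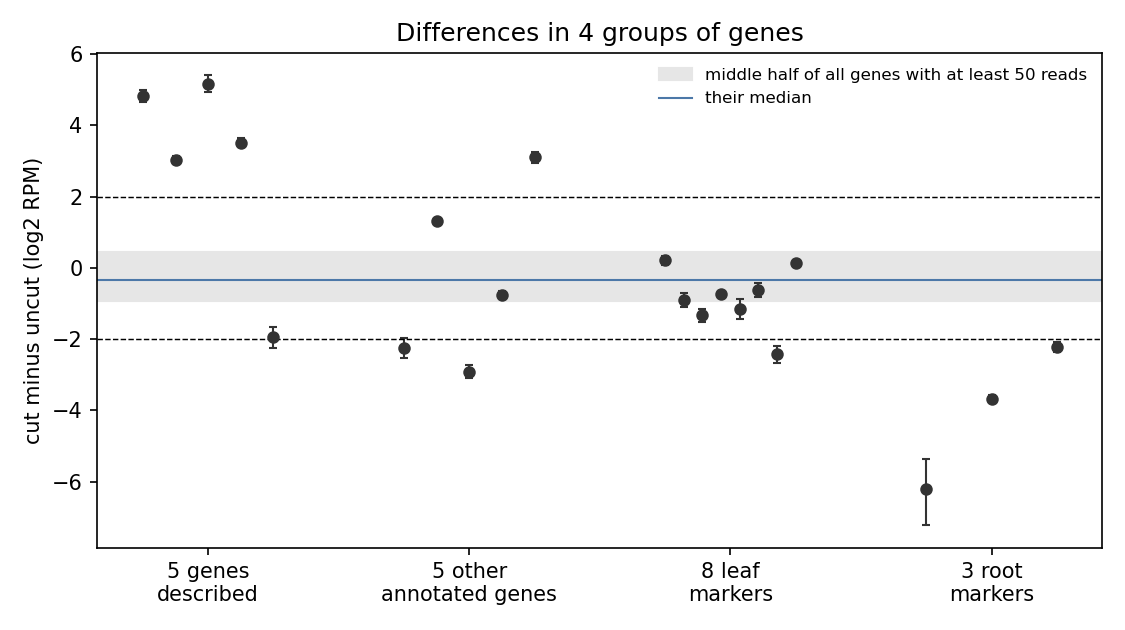
Differences between the libraries (cut minus uncut, log2 RPM; 1 point per gene, bars are exact 95% counting intervals) for the 5 genes described, the 5 other annotated genes, 8 leaf markers and 3 root markers. The root markers lie from -6.21 to -2.22, the leaf markers from -2.42 to 0.21, and the grey band from -0.93 to 0.44 holds the central quartiles of all genes with at least 50 reads.

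The leaf and root markers are described for the organs they stand for. The 4 higher genes were chosen with their values known, so no contrast between them and the markers is read. No marker of stem, node or bud was examined, so a larger share of these in the cut library would not be seen. CASP-like protein 1 (PGSC0003DMG400022659) is named for its likeness to the Casparian strip proteins of the root endodermis. This gene had 915 reads (uncut) and 11 (cut), a difference of -6.21 (-7.22 to -5.37). All 3 root markers were called lower, although peroxidase 64-like (PGSC0003DMG400003654) was short of the call at -1.89 under median ratio scaling, and 0 of them were without reads in either library. Of the 8 leaf markers 1 was called lower and 7 were not called, with a median of -0.81. Over all tested genes 8.25% were called higher and 7.35% lower. The marker lists were chosen with earlier results of these data known, so nothing is read from these counts. Some leaf markers have near-identical neighbours whose reads unique alignment can lose. The root markers were lower in the cut library, as were the HVA22-like and late embryogenesis abundant genes. So were 6 of the 8 leaf markers and 13698 of the 21688 tested genes. The part of root tissue in any difference was not tested.

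The positions of the genes were also compared, which the choice of members did not use. The 5 genes lay on 5 chromosomes, and 0 of them overlapped another listed gene. Of the 50 genes within 5 positions of them, 39 had at least 50 reads, of which 4 (10.3%) were called higher and 0 lower, against 8.25% and 7.35% of all tested genes, with a median of -0.25 against -0.33. The count of higher neighbours was thus near that of all genes, and the values of these 4 neighbours are given as a description. The nearest gene on one side of TAS14 (PGSC0003DMG400003531), 2261 bases away on the same strand, had 659 reads (uncut) and 12548 (cut). Its difference of 4.42 (4.30 to 4.53) exceeded that of TAS14 itself. The gene 4796 bases before the F-box gene on the same strand (PGSC0003DMG400020123) had 1018 and 4634 reads, a difference of 2.35 (2.25 to 2.45). A gene 26922 bases from the ATHB-12-like gene, on the other strand, had 481 and 1910 reads, a difference of 2.15 (2.01 to 2.30). The fourth was 59866 bases from the dioxygenase gene, with 0 reads (uncut) and 62 reads (cut), and was at least 23.2-fold higher with the count of 0 taken as 3 reads. None of these 4 neighbours is named in the sources used here.

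The gene after the HVA22-like gene (PGSC0003DMG401023061) carries the same locus number in its identifier and lies 1884 bases downstream on the same strand. It had 218 reads (uncut) and 74 (cut), a difference of -1.39 (-1.79 to -1.01). Both genes of this locus were thus lower in the cut library, as were 13698 of the 21688 tested genes, and neither reached the call.

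**Figure D4:**
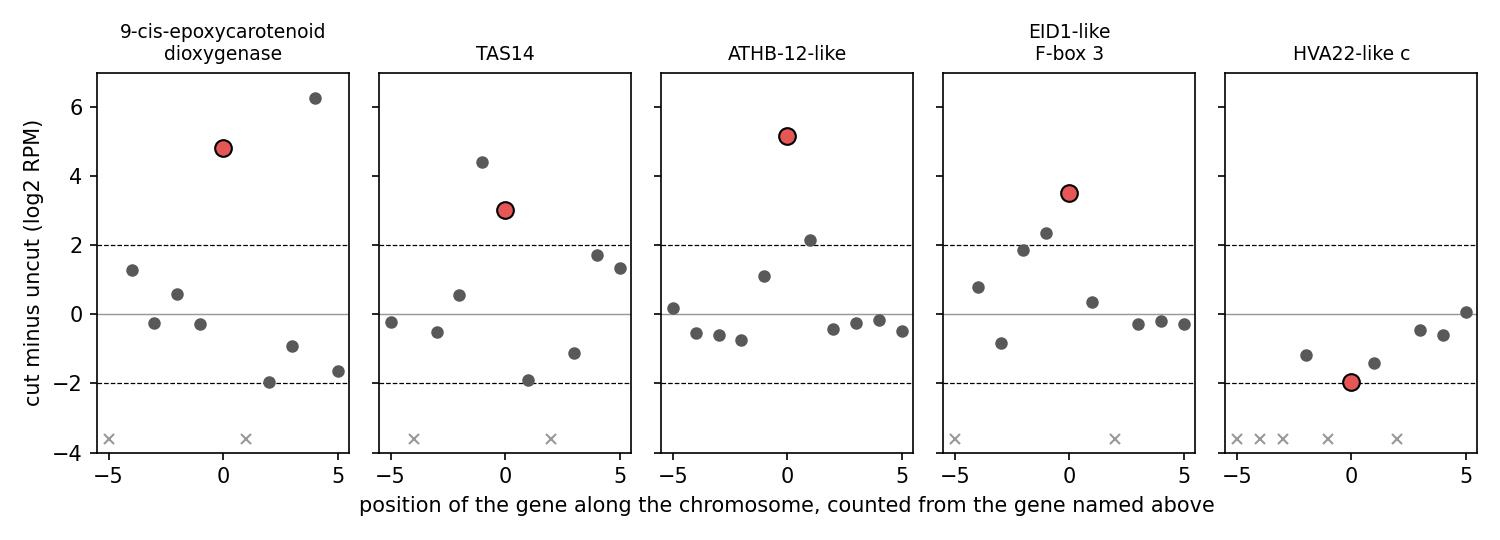
Differences (cut minus uncut, log2 RPM) of the 5 genes (red, position 0) and of the 5 listed genes on each side along the chromosome (grey), with crosses for genes under 50 reads, which have no value drawn. Dashed lines mark differences of 2; the point at 6.27 beside the dioxygenase gene had 0 reads in the uncut library and is drawn at its deposited value.

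The genes with the most similar pair of values were sought among the 362 other identifiers of the annotation table, by Euclidean distance over the 2 log2 RPM values. The nearest to the ATHB-12-like gene was aquaporin PIP2-1-like (PGSC0003DMG400020906), a water channel of the plasma membrane, at a distance of 0.19. Its reads were 175 (uncut) and 5763 (cut). An uncharacterized protein gene (PGSC0003DMG400015196) was nearest to the dioxygenase gene, at 0.17. Protein TORNADO 2 (PGSC0003DMG400017539), a tetraspanin of leaf patterning in Arabidopsis, was nearest to the HVA22-like gene, at 0.22, with 481 and 96 reads. For TAS14 and the F-box gene the nearest lay farther off, at 0.86 and 0.83. A distance over 2 libraries describes only a similar level and difference.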

How the data were processed

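Total RNA of the intact plantlets and of the explants was enriched for mRNA with oligo(dT) beads and made into libraries with a stranded kit. The authors trimmed the reads (Trim Galore 0.5.0), aligned them in pairs to SolTub 3.0 (HISAT2 2.1.0), kept unique alignments, counted the reads in the exons of each gene in SeqMonk 1.42.0 and deposited log2 RPM values. The methods of the study are written for its ultrasound experiment and are said to hold for the cutting experiment with minor differences. Whether strand was used in counting is not given in the sources used here.

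Here, whole reads were recovered from the steps between low values. A gene without reads was deposited at the value of 0.9 read. Levels carry exact Poisson intervals and differences exact conditional (Clopper-Pearson) intervals. With 1 library per condition no p-value or SD was computed, and a gene was called by size alone, at least 2 on the log2 scale given 50 reads or more in the libraries together. The recovery and intervals were tested on simulated reads, drawn independently and with 0 reads set to the value of 0.9 read. Mates of a pair counted singly were therefore not covered by that test. Differences were recomputed with pseudocounts of 1 and 0.1, by 3 other scalings and with other minima and sizes. Genes were named by rule: the members, other genes with matching annotation, the nearest genes on each side (identifiers without a name mostly left out), the most similar named gene, and the markers. The members and lists were chosen with earlier results of these data known. The scripts ran in Python 3.11.15 with matplotlib 3.10.9, scipy 1.17.1, numpy 2.4.6 and pandas 2.3.3.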

Additional observations from a re-analysis of the deposited data

How the results depend on the processing

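The direction of each of the 5 differences was the same under the 5 other scales and scalings run. Median ratio scaling, which sets the median of all genes with at least 50 reads to 0, raised each difference by 0.33, to 5.15 for the dioxygenase, 3.36 for TAS14, 5.50 for the ATHB-12-like, 3.84 for the F-box and -1.62 for the HVA22-like gene, with 3.84 as their median. Upper quartile scaling gave 3.18 for TAS14 and 3.66 for the F-box gene, which was again the median, and log2(RPM + 1) gave 4.87 for the ATHB-12-like gene. The other values stayed within the counting intervals of the main ones. The count of higher members was 4 under all 11 alternatives. The count of lower members, 0, became 1 (the HVA22-like gene) with a difference of at least 1 or with a counting interval beyond 1.

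Among all genes, 1789 were called higher and 1595 lower. A difference of at least 1 gave 3550 and 4881, one of at least 3 gave 937 and 528, no read minimum gave 3007 and 2486, and intervals beyond 1 gave 2975 and 3655. On the log2(RPM + 1) scale 857 were lower. Among the called genes only, the share of higher ones was 52.9%, and 66.8% under median ratio scaling (2216 higher and 1099 lower). The limit set by depth is 3 reads, and every member had at least 112 in each library. No paired analysis was possible because 1 library was made per condition.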
